A study of Mus musculus with 6 samples.

Results

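The genes described here encode the subunits of the 5 respiratory chain complexes of mouse mitochondria. They were taken by symbol from a table of read counts per gene: the Nduf subunits of complex I, the Sdh subunits of complex II, Cyc1 and the Uqcr subunits of complex III, the Cox4 to Cox8 subunits of complex IV, the Atp5 subunits of complex V, and the mRNAs of the mitochondrial genome. The rule reads symbols only. Of 30619 rows, 97 met the rule. The nuclear genome carries 84 of them (36 in complex I, 4 in complex II, 9 in complex III, 18 in complex IV and 17 in complex V), and the mitochondrial genome carries 13 (7 in complex I, 1 in complex III, 3 in complex IV and 2 in complex V). All but 2 passed the filter on low counts. Those 2 were mt-Atp8 and Cox7b2, of which the second had a single read in 1 library.

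The libraries were made from poly(A) RNA of whole hearts at stage E12.5, a mixture of cardiac cells, in 2 groups of 3. The control group is labelled wild type. The other group is titled CKO, for a conditional knockout of Trim28, a co-repressor that is recruited to DNA by zinc finger proteins, and its genotype label calls it a knockdown. The sources used here do not give the Cre driver, the strain or the number of hearts in a library. Nor do they say that the libraries of a group came from separate animals, and p-values below measure only how far these libraries vary, which may be technical.

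Electrons from NADH and succinate enter the chain at complexes I and II, pass through complex III and cytochrome c to complex IV, which reduces oxygen, and the proton gradient built on the way drives ATP synthesis at complex V. Complex II is made from nuclear genes only, while the other complexes join nuclear subunits with subunits translated inside the organelle. In the developing heart mitochondria mature as the muscle grows, and cytochrome oxidase exchanges several general subunits for heart and skeletal muscle forms.

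Total counts ran from 34400841 to 39763233 a library. Trim28 itself stood at 305, 391 and 443 CPM (counts scaled to the size of the library) in the controls and at 172, 314 and 165 CPM in the CKO libraries. The library labelled CKO 2 lay inside the control range, and the difference did not pass the test (log2 fold change of -0.81, standard error (SE) 0.34, adjusted p = 0.339), so each direction below rests on the labels. The summed cardiomyocyte markers made up 38128 to 41121 CPM in the controls and 40836 to 43107 CPM in the CKO libraries. Liver markers, which would show a dissection that took in neighbouring tissue, summed to between 1.27 and 1.77 CPM. The row of nuclear ribosomal RNA held 0.522, 0.222 and 0.126% of control counts and 0.790, 0.672 and 0.563% of CKO counts. The groups did not overlap, so the fits below with this share as a covariate cannot cleanly tell its part from the group's. In bulk RNA of this kind, fewer cells of a type and less RNA per cell cannot be told apart.

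The mitochondrial mRNAs have close copies in the nuclear genome, which bear on how at least 5 of the 13 can be read. On chromosome 1 of the mm10 build, a block of 4663 bases (24611535 to 24616197) carries 7 annotated unprocessed pseudogenes of 7 neighbouring mitochondrial genes, from mt-Co1 to mt-Nd4. Over 4140 aligned bases the copies differed from the mitochondrial genes at 2 positions. The stretches below show both differences and 1 stretch without any. Capitals mark the base that differs, and positions count from the first base of the mitochondrial gene. The differences were A1066T between mt-Co1 and Gm29216, and T3C between mt-Nd3 and Gm28438.

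mt-Co1: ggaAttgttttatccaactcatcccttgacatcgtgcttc

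Gm29216: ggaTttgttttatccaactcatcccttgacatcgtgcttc

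mt-Nd3: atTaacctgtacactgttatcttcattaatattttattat

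Gm28438: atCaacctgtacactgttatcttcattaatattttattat

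mt-Atp6: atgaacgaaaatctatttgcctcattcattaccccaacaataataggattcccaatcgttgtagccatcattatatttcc

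Gm10925: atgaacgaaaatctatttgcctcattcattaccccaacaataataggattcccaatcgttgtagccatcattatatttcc

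Each mRNA was read in windows of 50 bases, and the share of windows that also occur in another annotated transcript was taken. It was 100% for mt-Co2, 99.9% for mt-Co3, 99.5% for mt-Atp6, 98.8% for mt-Nd4l and 98.0% for mt-Nd3. It was 62.2% for mt-Nd4, 51.1% for mt-Co1, 8.19% for mt-Nd2 and 7.61% for mt-Nd5, and it was 0% for mt-Nd1, mt-Nd6, mt-Cytb and mt-Atp8. The 5 mRNAs at 98.0% or more were among the 6 with the lowest counts. The sixth was mt-Atp8, which shares no window with another annotated transcript. It lies between mt-Co2 and mt-Atp6 and overlaps the start of mt-Atp6. Only annotated transcripts were searched. In the block on chromosome 1, the sequence between the copies of mt-Atp6 (24613974 to 24614651) and mt-Co2 (24614885 to 24615565) was not, so a copy of mt-Atp8 there would be missed. The sources used here do not say whether reads with more than 1 match were counted, which also bears on the counts of mt-Nd4 and mt-Co1.

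**Figure D1:**
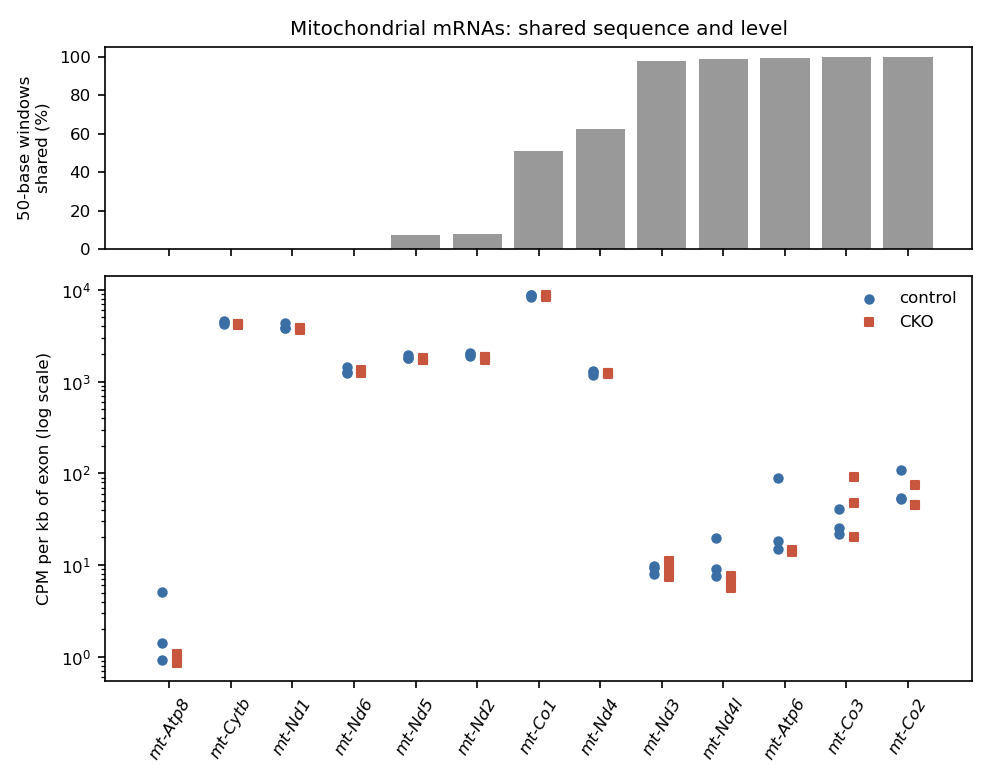
The 13 mitochondrial mRNAs ordered by the percent of their 50-base windows shared with another annotated transcript (upper panel, bars), with the level in CPM per kb of exon on a log scale in each library (lower panel, circles for 3 control and squares for 3 CKO libraries). The 5 mRNAs that share 98.0% of windows or more stand at 72.0 CPM per kb or less in the control mean, and so does mt-Atp8, which shares none (2.45), while the other 7 stand at 1255 or more.

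Of these 6, all but mt-Nd3 varied widely between replicates in at least 1 group. mt-Atp6, a subunit of the proton channel of complex V, had 2428 counts in control 1 and 392 and 465 in the other controls. Its CKO libraries held 348, 327 and 396 counts. For its pseudogene Gm10925 the control counts were 1238, 690 and 527, and the CKO counts 430, 458 and 722. Control 1 thus stood apart in mt-Atp6, and the log2 fold change of -1.53 (SE 0.91, edgeR adjusted p = 0.501) was -0.22 without that library.

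mt-Co2, a core subunit of cytochrome oxidase, was counted 1426, 2885 and 1385 times in controls and 1108, 1065 and 2018 times in CKO. mt-Co3, another core subunit, had 793, 652 and 1203 against 2618, 542 and 1468 counts. In both genes the groups overlapped, with control 2 the highest library for mt-Co2 and CKO 1 for mt-Co3. mt-Nd3 and mt-Nd4l, membrane subunits of complex I, had between 58 and 233 counts in every library, and mt-Atp8, a small subunit of complex V, had between 7 and 41. None of the 5 tested passed the test, and the 95% intervals of their log2 fold changes all reached beyond 0.5 in size.

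The other 7 mitochondrial mRNAs were abundant, and their replicates lay close together. mt-Co1, the catalytic subunit of complex IV, stood at 13636, 13596 and 12882 CPM in the controls and 12949, 13363 and 13474 CPM in the CKO libraries. The groups overlapped, and the log2 fold change was -0.01 (SE 0.048, edgeR adjusted p = 0.94). mt-Cytb, the only mitochondrial subunit of complex III, stood at 5272, 5124 and 4879 CPM against 4687, 4841 and 4841 CPM, with every CKO library below every control (log2 fold change -0.09, SE 0.049, edgeR adjusted p = 0.364).

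The complex I mRNAs lay close to these. mt-Nd2 stood at 2123, 2047 and 1969 CPM in the controls and 1922, 1795 and 1940 CPM in the CKO libraries. mt-Nd5 stood at 3584, 3329 and 3293 CPM against 3095, 3091 and 3286 CPM. Neither gene's groups overlapped, though the nearest libraries were separated by little, and neither passed the test (log2 fold changes of -0.12 and -0.11, edgeR adjusted p = 0.22 and 0.275).

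mt-Nd1 stood at 4112, 3651 and 3659 CPM against 3673, 3498 and 3651 CPM. mt-Nd4 stood at 1812, 1734 and 1643 CPM against 1663, 1692 and 1709 CPM. mt-Nd6, the only mRNA of the group transcribed from the other strand, stood at 755, 637 and 666 CPM against 647, 652 and 689 CPM. In these 3 genes the groups overlapped, and control 1 was the highest library. It was in fact the highest library for all 7 mRNAs, while the lowest library differed from gene to gene.

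All 7 log2 fold changes were below 0, from -0.12 to -0.01, with a median of -0.08, and all 7 intervals (95%) lay inside 0.5 either way. The 7 come from 1 genome and a few long precursor transcripts and are not independent. Over the 12 tested mitochondrial mRNAs the median was -0.08 as well, against 0.00 over all tested genes. Together the mitochondrial mRNAs took 3.15, 3.03 and 2.95% of all counts in the controls and 2.81, 2.90 and 2.96% in the CKO libraries. Nearly all of that sum came from the 7 abundant mRNAs. The counts of the other 6, most of them with close nuclear copies, may depend on how reads with several matches were treated. The groups overlapped at control 3 and CKO 3, and the means were 3.04% ± 0.101 and 2.89% ± 0.0711 (SD, n = 3 each). Without control 1 the difference went from -0.15 to -0.10 percentage points.

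The 2 mitochondrial ribosomal RNAs, which belong to the same genome and are not subunits, went the other way in value. They took 0.147, 0.0983 and 0.0786% of control counts and 0.206, 0.176 and 0.173% of CKO counts, with no overlap. Neither passed the test (mt-Rnr1 log2 fold change 0.87, SE 0.30, edgeR adjusted p = 0.254, and mt-Rnr2 0.76, SE 0.28, adjusted p = 0.279). The order of the libraries in their summed share was the same as in the nuclear ribosomal RNA row.

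The nuclear subunits differed little between the groups. Of the 83 tested, 1 rose and none fell in the CKO libraries at an adjusted p under 0.05 in edgeR's quasi-likelihood test, where 4.10% of all tested genes were called (3.03% higher and 1.07% lower). At an unadjusted p under 0.05, 15 of the 83 had higher and 1 had lower values in CKO, against 10.1% and 7.69% of all tested genes (17.8% in either direction). The groups did not overlap in 7 members with higher and 1 with lower CPM in CKO, against 11.5% and 10.6% of all tested genes (22.1% in either direction). Counted in either direction, the members' shares were near or below those of all genes, while higher values at an unadjusted p under 0.05 were more frequent among the members.

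The 95% interval of the log2 fold change lay inside 0.5 either way for 79 of the 83, where 58.1% of all tested genes reached that. Intervals narrow as counts grow, and the members were more abundant (median of 75.6 CPM per kb in the control mean, against 4.07 over all tested genes). Genes of similar level were not compared. The median log2 fold change was 0.08, with 67 values above 0 and 16 below, beside a median of 0.00 over all tested genes. By complex the medians were 0.06 for complex I, 0.01 for complex II, 0.12 for complex III, 0.12 for complex IV and 0.06 for complex V. Without the library labelled CKO 2, whose Trim28 level lay in the control range, the nuclear median was 0.13 and 15 members were called, all nuclear and higher, against 8.53% of all genes called in that fit. Without CKO 1 it was 0.02, with 1 member called, Ndufs7, as lower, against 2.99% of all genes.

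**Figure D2:**
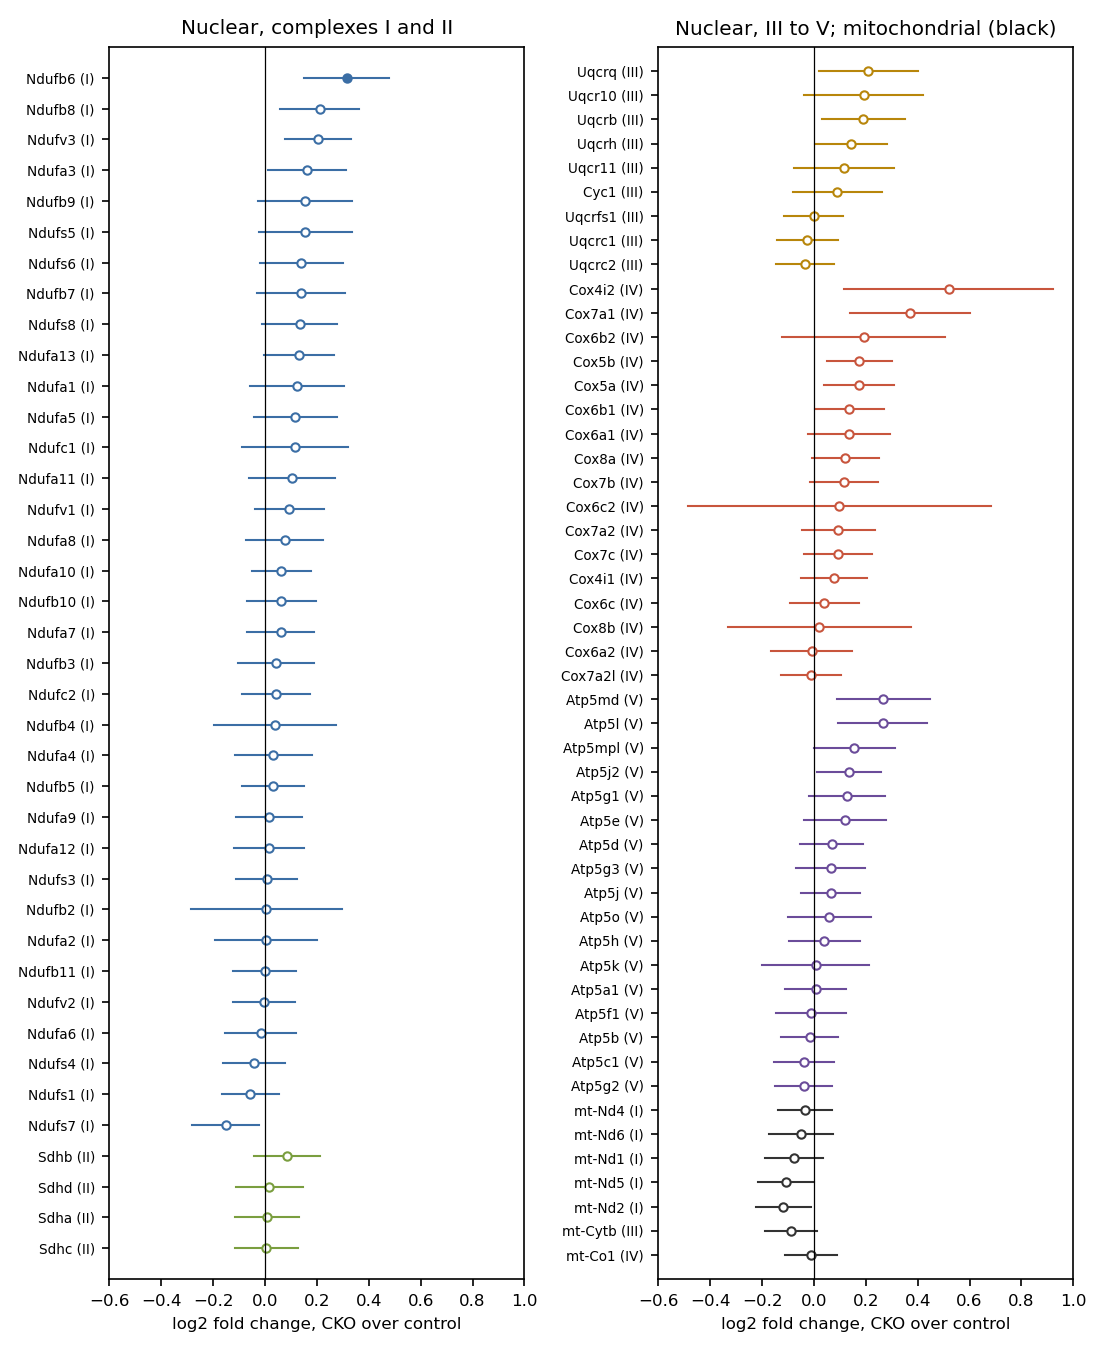
Log2 fold change (CKO over control) of tested subunits with 95% intervals, by complex (in parentheses), for nuclear genes and, in black, the 7 tested mitochondrial mRNAs that share at most 62.2% of their windows. The filled point is the 1 gene called, Ndufb6, and open points did not pass the test. The 5 other tested mitochondrial mRNAs and 1 nuclear gene are not drawn.

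Complex I takes electrons from NADH through 7 nuclear core subunits that between them hold the flavin and the iron-sulfur clusters, surrounded by accessory subunits that stabilize the assembly. The called gene was Ndufb6, an accessory subunit of the membrane arm, on the minus strand of chromosome 4 (40270591 to 40279421, mm10). It stood at 57.7, 53.1 and 50.8 CPM in the controls and rose to 74.6, 59.5 and 66.8 CPM in the CKO libraries. Every CKO library lay above every control, the lowest of them being the library labelled CKO 2.

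The log2 fold change of Ndufb6 was 0.31 (SE 0.078, 95% interval 0.15 to 0.48, edgeR adjusted p = 0.0281). The call was lost when control 2, control 3, CKO 1 or CKO 3 was left out (adjusted p of 0.115 to 0.164). Those fits called 1.65 to 2.99% of all tested genes. The call was also lost with the ribosomal RNA share (adjusted p = 0.763) or the summed Y-linked expression (0.134) as a covariate. In those 2 fits 0.319% and 1.94% of all tested genes were called. The ribosomal RNA share does not overlap between the groups, so its fit cannot cleanly separate the share from the group. Ndufb6 shares 31.6% of its windows with the overlapping gene Smim27, which stood below 1 CPM in every library.

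Of the other accessory subunits, Ndufv3, in the NADH-binding module, stood at 89.1, 95.7 and 83.4 CPM in the controls and 104, 103 and 103 CPM in the CKO libraries. The CKO libraries lay close together and above all controls, with a log2 fold change of 0.20 that missed the threshold (SE 0.060, edgeR adjusted p = 0.0611). Ndufb8, of the membrane arm, stood at 103, 107 and 94.1 CPM against 131, 107 and 113 CPM (0.21, adjusted p = 0.119), where control 2 and the library labelled CKO 2 were nearly level. The median over 29 accessory subunits was 0.06.

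The 7 core subunits had a median of 0.00, with 3 values above 0 and 4 below. The lowest value of the nuclear list was that of Ndufs7, the core subunit that carries the last iron-sulfur cluster before quinone. It stood at 94.6, 96.2 and 94.8 CPM in the controls and 93.1, 82.2 and 81.8 CPM in the CKO libraries. The groups did not overlap, with CKO 1 next to the controls, and the log2 fold change of -0.15 did not pass the test (SE 0.061, edgeR adjusted p = 0.189).

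Among other core subunits, Ndufs1, the largest, had a log2 fold change of -0.06, Ndufv2 of -0.00 and Ndufs3 of 0.01. Ndufv1, which binds NADH, had 0.09 and Ndufs8 had 0.13. Ndufa4, which carries a complex I name and is now counted as a subunit of cytochrome oxidase, stood at 213, 207 and 194 CPM against 234, 186 and 207 CPM, with overlapping groups and a log2 fold change of 0.03.

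Complex II oxidizes succinate and also belongs to the citric acid cycle. Its 4 subunits had log2 fold changes between 0.00 and 0.08. Sdhb, the iron-sulfur subunit, stood at 250, 253 and 232 CPM in the controls and 278, 236 and 264 CPM in the CKO libraries. Sdhc, a membrane anchor, stood at 246, 268 and 246 CPM against 274, 240 and 248 CPM. The groups overlapped in both, and all 4 intervals lay within 0.25 either way.

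Complex III passes electrons from quinol to cytochrome c, and its 9 nuclear members ranged from -0.03 to 0.21 on the log2 scale. Uqcrc1 and Uqcrc2, the core proteins, had log2 fold changes of -0.03 and -0.03, Uqcrfs1, the Rieske iron-sulfur protein, had -0.00, and Cyc1, cytochrome c1, had 0.09. The small subunits Uqcr11, Uqcrh, Uqcrb, Uqcr10 and Uqcrq had values from 0.12 to 0.21. None was called.

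The ends of that range were Uqcrq and Uqcrc2. Uqcrq stood at 146, 139 and 126 CPM in the controls and 179, 137 and 159 CPM in the CKO libraries (log2 fold change 0.21, SE 0.088, edgeR adjusted p = 0.233). Uqcrc2 stood at 421, 447 and 416 CPM against 440, 398 and 416 CPM. In both genes the library labelled CKO 2 lay among or below the controls.

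Cytochrome oxidase has several subunits with a general form and a form tied to muscle or another tissue. Levels of the 2 forms were set side by side per kb of exon, as the share of the tissue form in the pair, which does not depend on how libraries are scaled. Cox7a1, the heart and skeletal muscle form, made up 16.4, 15.1 and 14.8% of Cox7a1 and Cox7a2 in the controls and 18.4, 17.9 and 18.0% in the CKO libraries. Every CKO library was above every control, and the means were 15.4% ± 0.882 and 18.1% ± 0.292 (SD, n = 3 each). An exact permutation test of 3 against 3 cannot go below 0.1, and none was run.

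Cox7a1 itself (chromosome 7, 30184144 to 30186078, plus strand, mm10) stood at 19.0, 16.9 and 14.8 CPM in the controls and 24.5, 19.8 and 21.1 CPM in the CKO libraries. The groups did not overlap, and the log2 fold change of 0.37 missed the threshold (SE 0.11, 95% interval 0.14 to 0.60, edgeR adjusted p = 0.0659). Its partner Cox7a2 stood at 170, 168 and 150 CPM against 192, 161 and 170 CPM, with overlapping groups and a log2 fold change of 0.09.

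The other muscle forms did not follow Cox7a1 in value. Cox6a2, the heart and skeletal muscle form of subunit VIa, made up 23.5, 26.03 and 25.5% of its pair in the controls and 22.6, 25.1 and 22.2% in the CKO libraries. Cox8b, the muscle form of subunit VIII, made up 3.43, 3.03 and 4.002% against 3.47, 3.47 and 2.82%. In both pairs the groups overlapped. The CKO means were lower by 1.70 and 0.23 percentage points, and for Cox8b the difference turned to 0.025 points higher without control 3.

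Cox6a2 stood at 93.4, 114 and 102 CPM against 112, 101 and 95.4 CPM, and its general partner Cox6a1 at 313, 334 and 308 CPM against 394, 310 and 345 CPM. Cox8b stood at 6.30, 5.38 and 6.73 CPM against 7.28, 6.13 and 5.31 CPM, and Cox8a at 305, 296 and 278 CPM against 348, 293 and 314 CPM. The log2 fold changes of the muscle forms, -0.01 and 0.02, turned in sign under some settings, and those of the partners were 0.13 and 0.12. None of the 4 passed the test.

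Cox4i2, a form of subunit IV known from lung and from cells short of oxygen, had the largest log2 fold change of the nuclear list, 0.52 (SE 0.19, edgeR adjusted p = 0.144). It stood at 3.96, 4.67 and 6.70 CPM in the controls and 6.62, 8.72 and 6.67 CPM in the CKO libraries, where control 3 reached the level of CKO 1 and CKO 3. Its share of Cox4i2 and Cox4i1 was 1.93, 2.19 and 3.45% against 2.79, 4.15 and 3.24%, so the groups overlapped there too. Cox4i1 stood at 397, 411 and 370 CPM against 454, 396 and 391 CPM.

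Cox6b2, the testis form of subunit VIb, stood at 6.40, 7.27 and 6.97 CPM against 7.28, 9.06 and 7.28 CPM, and its share of Cox6b2 and Cox6b1 was 1.72, 1.92 and 1.99% against 1.66, 2.48 and 1.79%. Cox6b1 stood at 234, 237 and 220 CPM against 276, 228 and 254 CPM. Neither passed the test, and the shares overlapped.

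Among the subunits without a partner, Cox5b stood at 215, 221 and 206 CPM in the controls and 264, 224 and 238 CPM in the CKO libraries, with no overlap (log2 fold change 0.18, SE 0.060, edgeR adjusted p = 0.114). Cox5a had 0.17 (adjusted p = 0.142). The lowest value among the nuclear members of the complex was that of Cox7a2l, a factor that joins complex III and complex IV into supercomplexes, with 182, 189 and 173 CPM against 189, 177 and 174 CPM and a log2 fold change of -0.01. Cox6c2 is annotated as a processed pseudogene, shares 52.8% of its windows with Cox6c, and lay below 2.2 CPM throughout.

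**Figure D3:**
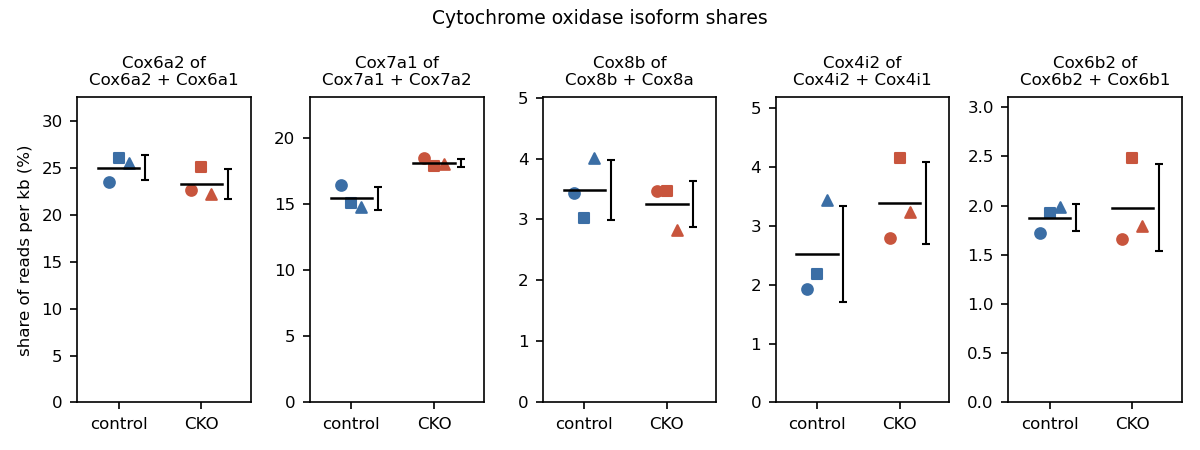
Share of the tissue form in each of 5 cytochrome oxidase pairs, in percent of the reads per kb of both forms, with 1 point per library (circle, square and triangle for replicates 1, 2 and 3), the group mean as a bar and the SD beside it. The Cox7a1 share does not overlap between the groups (14.8 to 16.4% against 17.9 to 18.4%), and the shares of the other 4 pairs do.

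Complex V held the most abundant nuclear subunits per length. Atp5b and Atp5a1, the catalytic and the non-catalytic large subunits of the F1 head, stood at 784 and 746 CPM per kb of exon in the control mean, beside a median of 75.6 over the nuclear members and 8655 for mt-Co1. Their log2 fold changes were -0.02 and 0.01, with standard errors of 0.052 and 0.055. Of the 3 genes for subunit c, which forms the rotating ring, Atp5g3 was the most abundant with 311 CPM per kb, and the log2 fold changes of Atp5g1, Atp5g2 and Atp5g3 were 0.13, -0.04 and 0.07.

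The highest values in complex V, over nuclear members, came from 2 small subunits of the membrane part that bear on the pairing of complexes into dimers. Atp5md stood at 108, 98.2 and 96.2 CPM in the controls and 137, 105 and 122 CPM in the CKO libraries (log2 fold change 0.27, SE 0.083, edgeR adjusted p = 0.0965). Atp5l stood at 72.7, 65.4 and 65.8 CPM against 89.2, 70.0 and 85.7 CPM (0.27, SE 0.081, adjusted p = 0.0843). In both, the library labelled CKO 2 lay within the control range, and CKO 1 and CKO 3 above it.

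The lowest value among the nuclear members of the complex was that of Atp5g2, with 183, 189 and 179 CPM in the controls and 186, 172 and 178 CPM in the CKO libraries. The groups overlapped. Atp5g2 also shares 38.4% of its windows with other transcripts, and Atp5o shares 41.6%, so both counts can include reads of other genes.

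A pattern by library ran through all 5 complexes. For each member, the log2 CPM of each library was taken against the control mean, and the median over the 83 nuclear members was 0.03, 0.02 and -0.06 in the controls and 0.21, -0.03 and 0.07 in the CKO libraries. CKO 1 was the highest library for 64 of the 83 members, where it was the highest for 21.6% of all tested genes. The lowest library was control 3 for 39 members and the library labelled CKO 2 for 25. The values of single members were therefore not independent of each other, and the groups overlapped in the median.

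CKO 1 was the highest library and CKO 3 the next in complexes I, III, IV and V, with CKO 1 at 0.20, 0.27, 0.25 and 0.16. In complex II, CKO 1 was at 0.13 and control 2 at 0.09. The median over all tested genes lay between 0.00 and 0.01 in every library. The 7 abundant mitochondrial mRNAs did not follow the nuclear ones. Their medians were 0.07, 0.00 and -0.05 in the controls and -0.08, -0.07 and -0.05 in the CKO libraries. CKO 1 was the highest library for the nuclear median and, by little, the lowest for the mitochondrial one. Gene by gene, CKO 1 was the lowest library for 1 of the 7 mRNAs and the library labelled CKO 2 for 3.

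As a ratio within a library, mitochondrial over nuclear member counts were 1.61, 1.51 and 1.57 in the controls and 1.34, 1.57 and 1.51 in the CKO libraries. CKO 1 stood apart, and the other 5 libraries overlapped. Nearly all of the mitochondrial counts in the ratio came from the 7 abundant mRNAs. The summed cardiomyocyte markers were also highest in CKO 1 (43107 CPM) and lowest in control 3 (38128 CPM), and their part in the library pattern was not tested. With the share of the ribosomal RNA row as a covariate, the median log2 fold change of the nuclear members was 0.01. That share does not overlap between the groups, so the fit cannot cleanly separate it from the group.

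**Figure D4:**
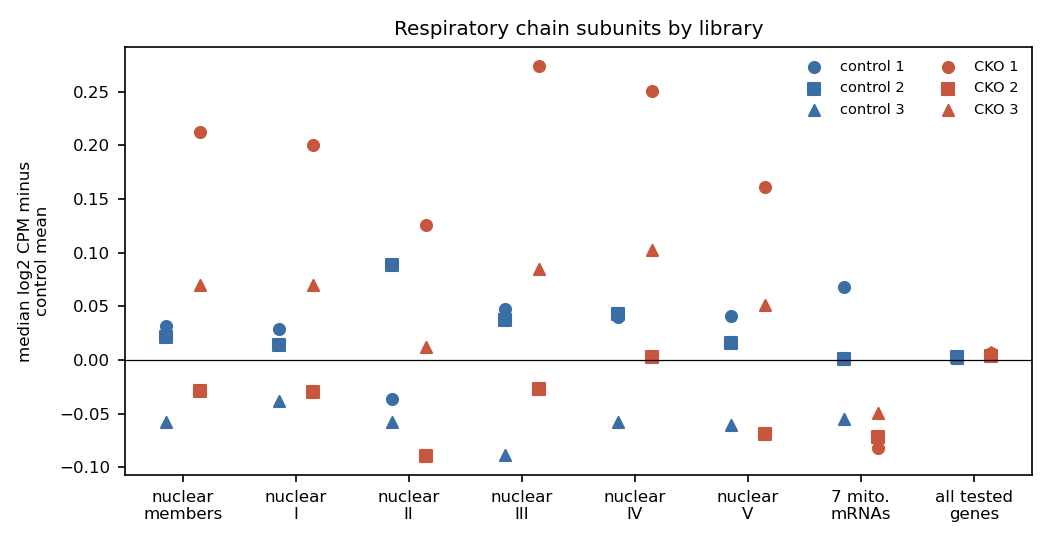
Median over members of the log2 CPM in each library minus the control mean, for nuclear members, for each complex, for the 7 abundant mitochondrial mRNAs and for all tested genes (blue for control, red for CKO, with a marker shape per replicate). CKO 1 is the highest library in each nuclear set. For the mitochondrial median it is the lowest, close to the library labelled CKO 2 (-0.08 and -0.07).

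Most nuclear subunits are short proteins with short mRNAs, so the fold changes were set against the exon length of the gene. The 22 members under 1 kb had a median log2 fold change of 0.12, the 31 between 1 and 2 kb 0.08, the 20 between 2 and 4 kb 0.06 and the 10 above 4 kb 0.01. Over all tested genes of at least 1 CPM the medians went the same way over a smaller span, with 0.04, 0.02, 0.01 and -0.01. Across the 83 members, which share their libraries, Pearson's r was -0.26 and Spearman's rho -0.29, and across 14279 genes r was -0.08.

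Among the CKO libraries, each set against the control mean, the length pattern was strongest in CKO 1. Single control libraries were not split by length. Members under 1 kb had a median of 0.26 in CKO 1, -0.02 in the library labelled CKO 2 and 0.09 in CKO 3, and all genes under 1 kb had 0.11, -0.01 and 0.06. Exon length here is the union of annotated exons, which is longer than the main mRNA for genes with rare long transcripts.

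**Figure D5:**
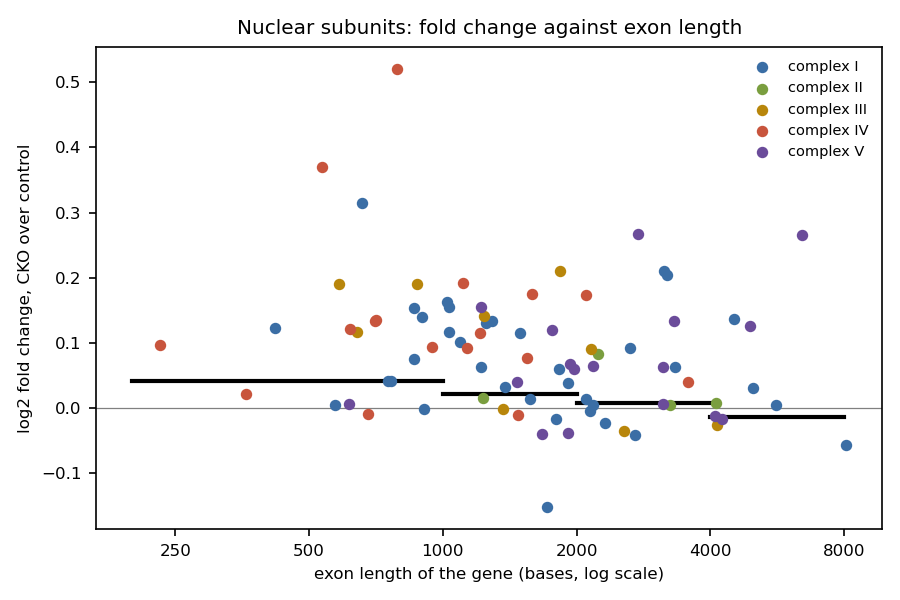
Log2 fold change (CKO over control) of the 83 tested nuclear subunits against the exon length of the gene in bases (log axis), coloured by complex, with the median over all tested genes of at least 1 CPM in 4 length classes as black bars. The members' medians go from 0.12 under 1 kb to 0.01 above 4 kb, and those of all genes from 0.04 to -0.01.

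Nuclear respiratory chain genes are known for shared promoter motifs, among them those of NRF1, of the ETS factor GABP, of YY1 and of the estrogen-related receptors. Because the nuclear members varied together across the libraries, their promoters (250 bases before to 50 after the start) were searched on both strands. RefSeq promoters on GRCm38.p6 matched 68 of the 84 nuclear members by symbol. The NRF1 motif (GCGC and TGCGC around any 1 base) was in 17 of the 68 promoters of members, against 10.26% of those of 12033 tested genes and 5.19% of all 27025.

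The YY1 motif AAGATGGCG was in 10.29% of the members' promoters against 3.07% of the tested genes', and the receptor motif TGACCTTG in 5.88% against 1.41%. The ETS motif CCGGAAG was in 17 of the 68 promoters against 18.06% and the CRE motif TGACGTCA in 5.88% against 3.39%. The SP1 motif GGGGCGGGG (16.18% against 23.46%) and the E-box CACGTG (8.82% against 11.27%) had lower shares in the members. None of these differences was tested. The motifs can overlap each other, and a match describes letters in this window only. The median log2 fold change of the members with an NRF1 match was 0.04 (n = 17) and of those without it 0.09 (n = 50).

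The promoters printed here are those of Sdha and Cox6a1, which hold more than 1 NRF1 match, and of the called gene Ndufb6, which holds none in these 170 bases before the start. Capitals mark the NRF1 motif on either strand. All 3 lie on the minus strand: Sdha at chr13:74350241-74350410, Cox6a1 at chr5:115348959-115349128 and Ndufb6 at chr4:40279422-40279591.

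Sdha: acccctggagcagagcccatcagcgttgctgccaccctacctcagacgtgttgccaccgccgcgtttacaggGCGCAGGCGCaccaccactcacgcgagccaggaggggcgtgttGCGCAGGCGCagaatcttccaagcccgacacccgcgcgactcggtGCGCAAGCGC

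Cox6a1: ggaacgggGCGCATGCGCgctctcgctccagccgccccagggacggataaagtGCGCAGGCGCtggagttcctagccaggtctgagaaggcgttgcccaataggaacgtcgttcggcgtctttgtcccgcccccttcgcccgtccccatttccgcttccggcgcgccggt

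Ndufb6: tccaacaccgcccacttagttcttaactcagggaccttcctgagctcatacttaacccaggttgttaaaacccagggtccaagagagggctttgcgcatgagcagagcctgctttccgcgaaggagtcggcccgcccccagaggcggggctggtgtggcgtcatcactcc

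Other genes of oxidative metabolism were read from lists. Over all tested genes, 4.10% were called and 17.8% had an unadjusted p under 0.05. Of 45 complex assembly factors, none was called in either direction (median log2 fold change 0.02), and 4 had an unadjusted p under 0.05. Uqcc2, an assembly factor of complex III, had 0.20 (edgeR adjusted p = 0.218), and Tmem126b, of complex I, had -0.20 (adjusted p = 0.228). None of 28 genes of mitochondrial DNA upkeep, transcription and RNA handling was called (median -0.07, 3 at an unadjusted p under 0.05). The nearest were Mgme1, a nuclease of mitochondrial DNA, at -0.32 (adjusted p = 0.0764) and Twnk, its helicase, at -0.27 (adjusted p = 0.0837).

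Of 19 regulators of mitochondrial gene expression, none was called (median -0.06, 4 at an unadjusted p under 0.05). Foxo1 had -0.21 (edgeR adjusted p = 0.101) and Ppard 0.19 (adjusted p = 0.232). Of 10 carriers of nucleotides, phosphate and substrates, none was called (median 0.08, 3 at an unadjusted p under 0.05), with Mpc2, a pyruvate carrier subunit, at 0.23 (adjusted p = 0.104) and Vdac2, an outer membrane channel, at 0.16 (adjusted p = 0.149).

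Of 15 genes for mobile carriers and coenzyme Q synthesis, 1 fell and none rose, beside 1.07% of all tested genes called lower. Coq8a, a kinase-like protein needed for coenzyme Q synthesis, stood at 17.0, 17.5 and 13.9 CPM in the controls and fell to 10.3, 11.1 and 12.1 CPM in the CKO libraries, with no overlap (log2 fold change -0.53, SE 0.12, edgeR adjusted p = 0.015). Of 14 genes of the citric acid cycle, 1 fell and none rose, beside the same 1.07%. Suclg2, a subunit of succinyl-CoA ligase, stood at 154, 172 and 157 CPM and fell to 142, 139 and 137 CPM (log2 fold change -0.21, SE 0.056, edgeR adjusted p = 0.0379).

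Of the 14 tested genes of a hypoxia-linked list, which also holds Cox4i2, 5 rose and none fell, beside 3.03% of all tested genes called higher. Not all of the list acts on the chain itself. The other 9 did not pass the test, and the median was 0.11. Bnip3, a mitochondrial receptor for mitophagy, stood at 75.6 ± 3.86 CPM in the controls and rose to 112 ± 6.98 CPM in the CKO libraries (SD, n = 3 each, log2 fold change 0.56, SE 0.063, edgeR adjusted p = 3.56e-05). Egln1 and Egln3, oxygen-sensing prolyl hydroxylases, rose by 0.41 and 0.58 on the log2 scale (adjusted p = 3.88e-04 and 0.00783).

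Higd1a, a small membrane protein that binds cytochrome oxidase, stood at 70.6, 68.8 and 70.4 CPM and rose to 89.5, 78.9 and 90.1 CPM (log2 fold change 0.30, SE 0.063, edgeR adjusted p = 0.00894). Pdk1, a kinase that inhibits pyruvate dehydrogenase, was the fifth. It stood at 248, 264 and 253 CPM and rose to 274, 315 and 297 CPM (log2 fold change 0.21, SE 0.056, edgeR adjusted p = 0.0379). In Bnip3, Egln1, Egln3 and Pdk1 the library labelled CKO 2 was the highest of the 6, unlike its place among the respiratory chain subunits. In Higd1a it was the lowest of the CKO libraries. Ndufa4l2, a related gene known to rise in hypoxia, stood at 5.72, 6.02 and 6.09 CPM against 4.66, 8.05 and 5.26 CPM, with overlapping groups and a log2 fold change of 0.00.

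Calls were more frequent in several lists of cell type markers than over all tested genes, of which 4.10% were called. Of 17 cardiomyocyte markers 3 rose (Myl7 by 0.53, Myh6 by 0.33 and Myl4 by 0.23 on the log2 scale) and 1 fell (Pln, -0.51). Of 10 endothelial and endocardial markers 3 fell (Tek, Cdh5 and Kdr), and of 9 mesenchymal markers 1 fell (Postn). Of 9 macrophage markers 4 rose (Lyz2, C1qa, C1qc and C1qb), with a sum of 121.3 to 124.9 CPM in the controls and 153 to 177 CPM in the CKO libraries. Of 7 skeletal muscle genes Tnnt3 rose and Tnni2 fell.

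None of 11 erythroid (median -0.42), 7 epicardial, 6 neural or 2 liver markers was called in edgeR. At an unadjusted p under 0.05 there were 0, 1, 2 and 0, against 17.8% of all tested genes. The erythroid sum was 2219, 1629 and 1288 CPM in the controls and 1161, 1286 and 1301 CPM in the CKO libraries, with control 1, the library highest in mitochondrial mRNAs, again the highest. With erythroid genes taken out of the total, the share of mitochondrial mRNAs was 3.16, 3.03 and 2.96% against 2.82, 2.90 and 2.96%. That step changes only the total, of which erythroid genes are a small part, and leaves mitochondrial mRNAs from red cells in the share. It therefore cannot show the part of red cells. The part of red cells and of the other cell types in the values of the subunits was not tested.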

How the data were processed

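Gene counts were analysed for 6 heart libraries (3 control, 3 CKO, grouped by title). The authors deposited raw read counts per gene symbol as whole numbers, on mm10, per the submitters' processing notes. The sources used here do not give the aligner, the counting program, its annotation, its use of strand or its treatment of reads with several matches. Altered symbols were restored from GENCODE M21, which matched 95 members, and 2 more were matched by position in RefSeq.

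Differences were tested with edgeR 4.0.16 (R 4.3.3): filterByExpr (minimum count of 10, total of 15), TMM scaling, a robust quasi-likelihood fit with group as the only term, two-sided, and Benjamini-Hochberg adjustment over 17557 tested genes, with a call at an adjusted p under 0.05. Unless another test is named, every adjusted p comes from this fit. Log2 fold changes are CKO over control, the SE was taken as the log2 fold change over root F, and CPM uses TMM-scaled totals. The fit was tested on simulated counts.

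The members and lists were chosen with earlier results of these data known. Values in every library are given for called members, mitochondrial mRNAs, the paired cytochrome oxidase forms and the highest and lowest member of each complex with a mean of at least 1 CPM, and for a few members chosen after their values were seen (Ndufv3, Ndufb8, Ndufa4, Cox5b, Atp5l). Of each other list, called members with the smallest adjusted p are named, or up to 2 others where none was called. The values of 1 nuclear member are not reported here, and it stays in the counts and medians. Alternatives were DESeq2 1.42.0, limma-voom (limma 3.58.1), other scaling and filters, a replicate block, gene removal, 2 covariates and leaving out each library.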

Additional observations from a re-analysis of the deposited data

How the results depend on the processing

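The count of called members was 1 with relative log expression scaling, without scaling and with limma-voom (3.86 to 4.26% of all genes called). It was 1 as well with mitochondrial or erythroid genes removed (4.13 and 4.14%). It was 2 with edgeR's legacy fit (4.22% of all genes called) or with genes kept at 1 CPM or more in 3 libraries (5.60%), 9 without a filter (8 higher, 1 lower, 4.09%), 4 with DESeq2 (6.59%), and 0 with the ribosomal RNA share or with Y-linked expression as a covariate, where 0.319% and 1.94% of all genes were called. Leaving out 1 library gave 0 to 15. The count was 0 without control 2, control 3 or CKO 3, where 1.98, 1.65 and 1.71% of all genes were called. It was 1 without control 1 or CKO 1 (1.78 and 2.99%), and 15 without CKO 2 (8.53%). Same-numbered libraries did not deviate together (r of 0.017, -0.077 and 0.006), while differently numbered ones ran from -0.155 to 0.167. These values do not show pairing by number and cannot exclude it. With the replicate number as a block 4 members were called (Atp5l, Ndufb6, Atp5md and Cox7a1), and 3.85% of all genes. The cause of these differences was not tested.

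The median of the nuclear members stayed above 0 in every setting run, from 0.02 to 0.13 over the libraries left out and 0.01 with the ribosomal RNA covariate. That of the mitochondrial members stayed below 0, from -0.12 to -0.05 over the libraries left out, and was -0.16 with that covariate. The difference in the Cox7a1 share was 2.70 percentage points, 2.37 to 3.20 over the libraries left out, and 1.77 with counts not divided by length. Over the libraries left out, the Cox8b difference ran from -0.46 to 0.025 and the Cox6b2 difference from -0.15 to 0.26, turning in sign. The legacy fit and the median over 7 mitochondrial mRNAs (-0.08) were added after seeing the data.

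Some log2 fold changes turned in sign. With the ribosomal RNA covariate this held for Cox4i1 (-0.017), Cox6a2 (0.064), Cox7a2 (-0.045), Cox8b (-0.0096), Ndufb7 (-0.0064) and Sdhc (-0.0066). With the Y-linked covariate it held for Cox6a2 (0.085), Cox7a2l (0.030), Cox8b (-0.069), Uqcrc2 (0.0069), mt-Co1 (0.0019), mt-Co2 (0.097) and mt-Nd3 (-0.043). Without scaling it held for Cox8b (-0.0017) and Sdhc (-0.018), and without a filter for Sdhc (-3.04e-05). Over the libraries left out the values ran from -0.0025 to 0.12 for Cox4i1, -0.081 to 0.066 for Cox6a2, -0.054 to 0.018 for Cox7a2l, -0.11 to 0.13 for Cox8b, -0.059 to 0.046 for Sdhc, -0.68 to 0.045 for mt-Co2, -0.12 to 0.17 for mt-Nd3 and -0.10 to 0.019 for mt-Nd6.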
